A study of Mus musculus with 15 samples.

Results

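D-type cyclins, their kinase partner Cdk4, 3 inhibitors of cyclin-dependent kinases and 2 genes of dividing cells were followed across 15 libraries of sorted mouse islet cells, most of them labelled through a β-cell promoter. The 9 genes were chosen by symbol (Ccnd1, Ccnd2, Ccnd3, Cdk4, Cdkn1a, Cdkn1b, Cdkn2c, Mki67 and Top2a), each had a usable value in every library, and they stand among 22924 genes so measured. Of the 9, 7 passed a filter on low values (a mean of at least 1 FPKM, the number of fragments scaled by transcript length and library depth) that left 11254 genes for testing, and Mki67 and Top2a fell below it.

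Islet cells that carried a red fluorescent label switched on by cre recombinase were separated with aldefluor, a dye retained by cells with aldehyde dehydrogenase activity, into ALDH- and ALDH+ populations. The mice were on a mixed 129J-C57BL/6 background, and carried either a triple knockout of Foxo1, Foxo3 and Foxo4 in the cells with cre activity or control alleles, which the labels give as heterozygous for all 3 genes and the study's methods as wild type. The sorting methods give an age of 6 months and name Rip-cre mice only. There were 3 control ALDH-, 2 control ALDH+, 5 knockout ALDH- and 5 knockout ALDH+ libraries. The cre driver was Rip, the rat insulin promoter, in 9 libraries and Pdx, a promoter active in pancreatic precursors, in 6. Of the Pdx-cre libraries, 1 was control ALDH- (replicate 3), 1 was control ALDH+ (replicate 2), and replicates 4 and 5 of both knockout groups made up the others. With Pdx-cre, deletion and label are not limited to β cells. The methods describe islets collected from several animals per genotype, and no label says which libraries came from separate animals, so that p-values measure the spread between libraries, which may in part be technical.

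Entry into the cell cycle is gated by D-type cyclins, which bind the kinases Cdk4 and Cdk6 and start the phosphorylation of the retinoblastoma protein that frees E2F factors. Cdkn2c (p18) and its relatives bind Cdk4 and Cdk6 directly, whereas Cdkn1a (p21) and Cdkn1b (p27) act on cyclin-kinase complexes. In rodent β cells Ccnd2 and Cdk4 are known for their part in postnatal growth of the β-cell mass, adult β cells divide rarely, and FoxO factors are known in other tissues for raising Cdkn1b and lowering D-type cyclins.

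Fragments worked out from the deposited intervals summed to between 7492010 and 10057827 per library. These sums leave out entries without a usable estimate, among them Ins1 and, in 3 libraries, Ins2. Foxo1 was 12.0 to 20.1 FPKM in controls and 0.0925 to 4.24 FPKM in knockouts. Foxo3 was 12.7 to 23.0 FPKM in controls and 9.78 to 30.6 FPKM in knockouts, a value over the whole gene that does not isolate the deleted exons, and Foxo4 was at or below 1.34 FPKM everywhere. Aldh1a3, the dehydrogenase that the dye was meant to follow, was 22.1 to 76.9 FPKM in ALDH+ and 0.490 to 4.09 FPKM in ALDH- libraries. Of 10 β-cell markers 8 were usable, and 6 of these 8 were called lower in Pdx-cre than in Rip-cre libraries by limma (median log2 fold change of the 8 -1.14), with 0 called for ALDH or genotype. Slc2a2, the glucose transporter of rodent β cells, was 8.61 to 24.6 FPKM in Pdx-cre and 99.95 to 227 FPKM in Rip-cre libraries, and Nkx6-1, Ucn3 and Slc30a8 did not overlap between the drivers either. Of all tested genes 9.83% were called for the driver, and 1.95% had rescaled ranges apart between the drivers. Iapp lay between 33196 and 125094 FPKM over all libraries, Mafa was at or below 13.9 FPKM, while Ins1 could not be estimated in any library and Ins2 not in 3 (control ALDH- replicates 1 and 2, knockout ALDH- replicate 2). The summed level of 4 RNAs retained in the nucleus (Malat1, Neat1, Meg3, Kcnq1ot1) was 2045 to 4903 FPKM in ALDH+ and 272 to 1610 FPKM in ALDH- libraries. The summed level of 5 α-cell markers was 9713 to 36560 FPKM in the 3 Pdx-cre ALDH- libraries, 585 to 6084 FPKM in the 3 Pdx-cre ALDH+ libraries and 483 to 1424 FPKM in the Rip-cre libraries, with δ-cell markers highest in the same Pdx-cre ALDH- libraries (8255 to 13646 FPKM, against at most 2990.4 FPKM elsewhere). PP-cell markers were 2988 to 18184 FPKM in the Pdx-cre ALDH-, 318 to 4433 FPKM in the Pdx-cre ALDH+ and 371 to 2175 FPKM in the Rip-cre libraries.

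The plot of all 9 genes by group shows their order of abundance, which spanned over 2 orders of magnitude. Median FPKM over the 15 libraries, a value scaled by transcript length, was 157 for Ccnd2, 137 for Cdkn1a, 68.7 for Cdk4, 33.5 for Ccnd1, 15.6 for Ccnd3, 7.44 for Cdkn1b, 5.74 for Cdkn2c, 0.693 for Top2a and 0.603 for Mki67. Neighbours in this order were distinct in every library only between Cdkn1a and Cdk4 and between Cdk4 and Ccnd1. Ccnd2 exceeded Cdkn1a in 9 of 15 libraries and Top2a exceeded Mki67 in 7 of 15, so these pairs have no fixed order, while Ccnd1 exceeded Ccnd3 in 13, Ccnd3 exceeded Cdkn1b in 12, Cdkn1b exceeded Cdkn2c in 12 and Cdkn2c exceeded Top2a in 14.

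**Figure D1:**
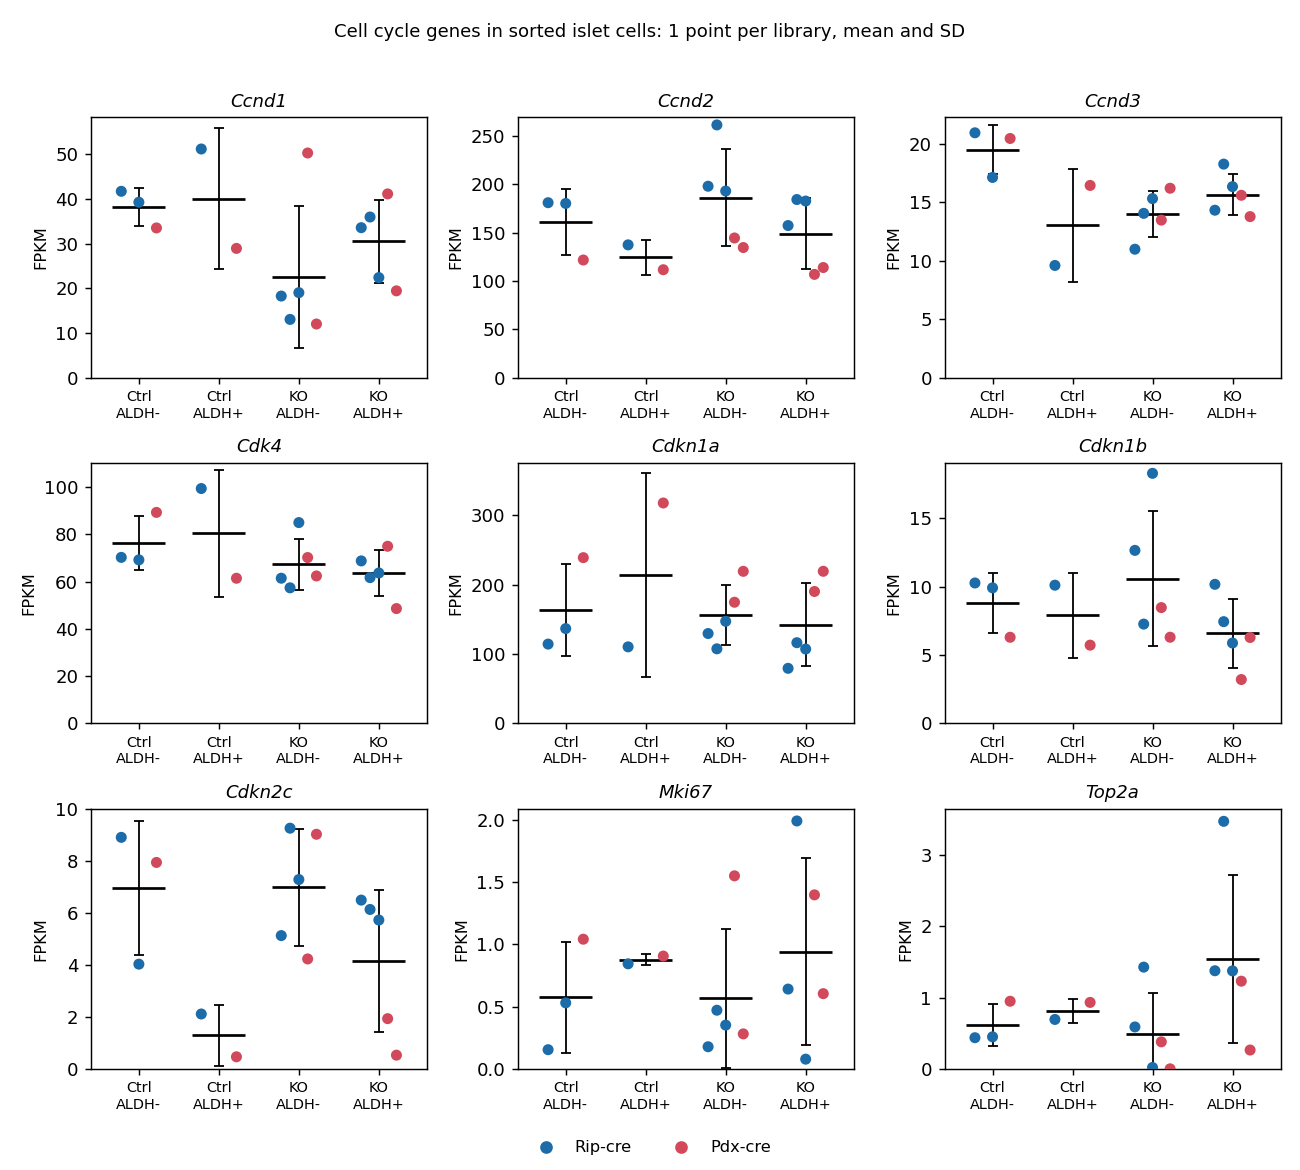
FPKM of the 9 genes (vertical axes, each from 0) in control (Ctrl) and Foxo knockout (KO) ALDH- and ALDH+ cells; each point is a library coloured by cre driver, horizontal lines are group means and bars are SD, cut at 0. Cdkn1a points of Pdx-cre libraries (175 FPKM and above) lie over those of Rip-cre libraries (at most 147 FPKM), and the lowest Cdkn2c points are in ALDH+ cells.

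Ccnd2, the D-type cyclin best known for β-cell growth, made up most of the D-type cyclin message. The gene lies on chromosome 6 from 127075726 to 127101066 in the coordinates of the deposited tables (mm9). Its share of the summed FPKM of the 3 D-type cyclins was 65.3% at its lowest, 76.7% at the median and 90.6% at its highest, the last in knockout ALDH- replicate 2. Ccnd2 measured 181, 180.2 and 122 FPKM in control ALDH- replicates 1 to 3, and 137 and 112 FPKM in control ALDH+ replicates 1 and 2. In knockouts it measured 198, 261, 193, 144 and 135 FPKM in ALDH- replicates 1 to 5 and 157, 184, 183, 107 and 114 FPKM in ALDH+ replicates 1 to 5. Within every group the Pdx-cre libraries were the lowest, and as deposited the ranges of all 4 groups overlapped. After rescaling, control ALDH+ ran from 112 to 132 and knockout ALDH- from 137 to 269, groups that differ in both genotype and ALDH population. How many of all genes were apart in that split was not counted, so nothing is read from this gap. Its SD over libraries, 0.36 on the log2 scale, was below the 0.44 of the median tested gene.

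**Figure D2:**
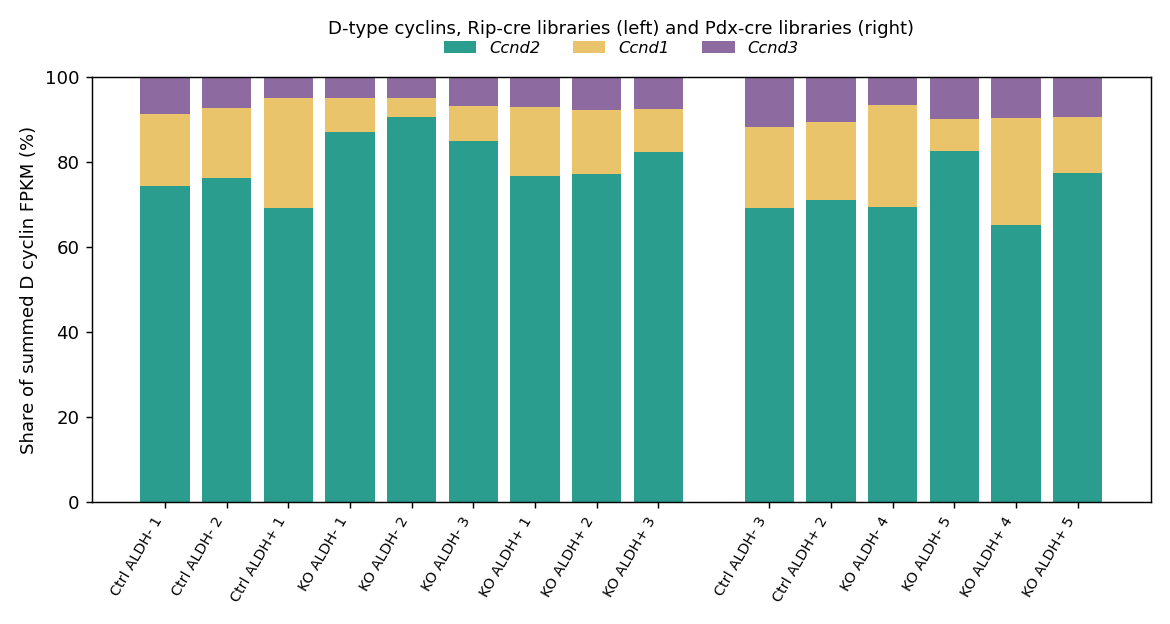
Share of the summed FPKM of Ccnd1, Ccnd2 and Ccnd3 (vertical axis, percent) in each library, with 1 bar per library named by group and replicate. Ccnd2 held between 65.3% and 90.6%, Ccnd1 between 4.52% and 25.8% and Ccnd3 between 4.84% and 11.7%.

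Ccnd1, the D-type cyclin that growth factor signals induce in many cells, lies on chromosome 7 from 152115835 to 152125830 (mm9). It was 41.7, 39.3 and 33.5 FPKM in control ALDH- replicates 1 to 3 and 51.2 and 28.9 FPKM in control ALDH+ replicates 1 and 2. Knockout ALDH- replicates 1 to 5 gave 18.3, 13.0, 19.0, 50.3 and 12.0 FPKM, and knockout ALDH+ replicates 1 to 5 gave 33.6, 36.0, 22.4, 41.1 and 19.4 FPKM. In ALDH- cells 4 of 5 knockout libraries lay below all controls and the 5th, a Pdx-cre library, lay above them. That library also held the highest Mki67 value of its group. The spread of Ccnd1 over libraries, an SD of 0.62 on the log2 scale, was the widest of the D-type cyclins.

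Ccnd3, the third member of the family, lies on chromosome 17 from 47641999 to 47736637 (mm9). It measured 21.0, 17.1 and 20.5 FPKM in control ALDH- replicates 1 to 3 and 9.61 and 16.5 FPKM in control ALDH+ replicates 1 and 2. In knockouts, ALDH- replicates 1 to 5 gave 11.0, 14.1, 15.3, 13.5 and 16.2 FPKM and ALDH+ replicates 1 to 5 gave 14.3, 18.3, 16.4, 15.6 and 13.8 FPKM. As deposited, all 5 knockout ALDH- libraries were below the 3 control ALDH- libraries, but after rescaling the ranges overlapped, and 3.12% of all tested genes had rescaled ranges apart in this split. In ALDH+ cells the knockout values lay inside or above the range of the controls.

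Because the knockouts were made by deletion in Foxo genes, promoters of the members were searched for GTAAACA, the core of the FoxO binding motif. The search covered both strands in the 250 bases before the transcription start. RefSeq sequence (GRCm38.p6, a later build than that of the tables) was at hand for 10 windows of 7 genes, namely Ccnd3, Cdk4, Cdkn1a, Cdkn1b, Cdkn2c, Mki67 and Top2a, and not for Ccnd1 or Ccnd2. The core was present in 1 of the 10, the upstream window of Ccnd3 at chr17:47504801-47505050 on the plus strand, where it begins at position -243 from the start, read as TGTTTAC. Of all 32851 windows of the same length 3.17% held it. The window is shown because it is the only one with a match, which is in capitals and is a match of letters alone.
Ccnd3: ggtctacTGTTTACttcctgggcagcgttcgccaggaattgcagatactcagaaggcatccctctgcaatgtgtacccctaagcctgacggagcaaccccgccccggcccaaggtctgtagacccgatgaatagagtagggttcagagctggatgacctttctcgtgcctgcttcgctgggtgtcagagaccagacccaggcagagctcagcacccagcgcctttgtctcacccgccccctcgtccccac

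Cdk4, the kinase that D-type cyclins activate, was the steadiest of the 9 genes, with an SD of 0.25 on the log2 scale over the libraries. The gene lies on chromosome 10 from 126500658 to 126504338 (mm9). Control ALDH- replicates 1 to 3 gave 70.2, 69.2 and 89.3 FPKM and control ALDH+ replicates 1 and 2 gave 99.4 and 61.4 FPKM. Knockout ALDH- replicates 1 to 5 gave 61.4, 57.3, 85.0, 70.2 and 62.4 FPKM, and knockout ALDH+ replicates 1 to 5 gave 68.7, 61.7, 63.6, 74.9 and 48.6 FPKM. The ranges of all 4 groups overlapped. Its promoter window held 4 matches to the E-box CACGTG, a motif bound by Myc and related factors, which 6.02% of all windows hold at least once and 0.0213% at least 4 times. The partner Cdk6 was at a median of 0.128 FPKM, so Cdk4 was by far the more abundant of the kinases that D-type cyclins bind.

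Cdkn1a, the inhibitor that p53 and other stress signals induce, was the most abundant inhibitor and the gene with the clearest difference between libraries. It lies on chromosome 17 from 29227930 to 29237667 (mm9). The 9 Rip-cre libraries ran from 79.2 FPKM through a median of 114 to 147 FPKM, and the 6 Pdx-cre libraries from 175 FPKM through a median of 219 to 318 FPKM, so the sets did not overlap. The highest value was that of control ALDH+ replicate 2 and the next, 239 FPKM, that of control ALDH- replicate 3, which are the only Pdx-cre controls. Within each driver the knockout and control ranges and the ALDH- and ALDH+ ranges overlapped, except that the 2 Pdx-cre controls lay above the 4 Pdx-cre knockouts, a separation that 12.6% of all tested genes showed in one direction or the other.

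Cdkn1b, the inhibitor that holds many cells in quiescence, lies on chromosome 6 from 134870418 to 134875543 (mm9). It gave 10.3, 9.92 and 6.30 FPKM in control ALDH- replicates 1 to 3 and 10.1 and 5.72 FPKM in control ALDH+ replicates 1 and 2. Knockout ALDH- replicates 1 to 5 gave 12.7, 7.26, 18.3, 8.47 and 6.30 FPKM and knockout ALDH+ replicates 1 to 5 gave 10.2, 7.44, 5.88, 3.20 and 6.28 FPKM. The ranges of all 4 groups overlapped, with the highest value in a knockout ALDH- and the lowest in a knockout ALDH+ library. Its promoter window held no match to the FoxO core, which says only that these letters are not in that stretch.

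Cdkn2c, the inhibitor that binds Cdk4 and Cdk6 themselves, had the widest spread of the 7 tested genes, with an SD of 0.94 on the log2 scale. It lies on chromosome 4 from 109333480 to 109337977 (mm9). Control ALDH- replicates 1 to 3 gave 8.92, 4.04 and 7.96 FPKM, and control ALDH+ replicates 1 and 2 gave 2.11 and 0.463 FPKM. Knockout ALDH- replicates 1 to 5 gave 5.14, 9.28, 7.30, 4.24 and 9.04 FPKM and knockout ALDH+ replicates 1 to 5 gave 6.50, 6.14, 5.74, 1.93 and 0.527 FPKM. The 4 lowest values were all in ALDH+ cells, and 3 of them were the 3 Pdx-cre ALDH+ libraries. Those 4 values rested on 18, 4, 18 and 5 fragments, in the order in which they are given above, against 40 to 95 fragments in ALDH- libraries, so counting error alone is large there, as the bars in the plot of Cdkn2c and Top2a by driver show.

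**Figure D3:**
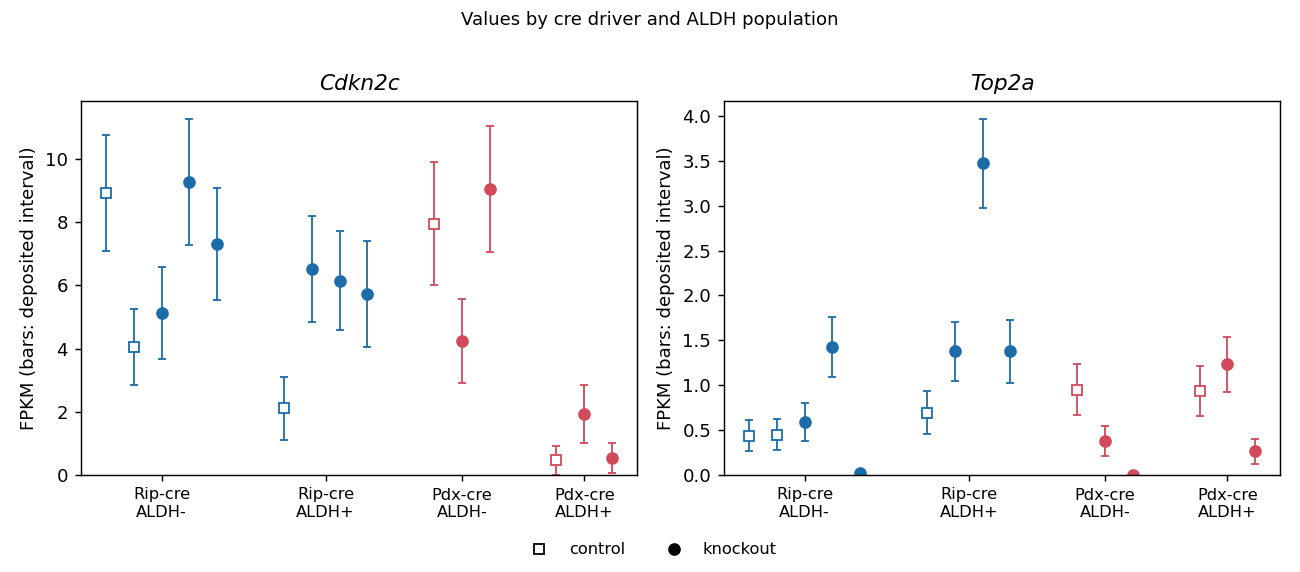
FPKM of Cdkn2c and Top2a (vertical axes, from 0) by cre driver and ALDH population; squares are controls, circles are knockouts, and bars are the confidence intervals deposited with each value. The 3 Pdx-cre ALDH+ libraries gave Cdkn2c values of at most 1.93 FPKM, and Top2a exceeded 1.5 FPKM in a single library, at 3.47 FPKM.

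Mki67, which encodes the proliferation antigen Ki-67, and Top2a, the topoisomerase of replicating cells, had the lowest median FPKM of the 9 genes. Low FPKM did not mean the fewest fragments. Mki67 rested on 7 to 220 fragments per library and Top2a on 0 to 196, against 4 to 95 for Cdkn2c. Mki67 (chromosome 7, 142881470 to 142908062, mm9) was 0.154, 0.529 and 1.04 FPKM in control ALDH-, 0.843 and 0.905 in control ALDH+, 0.177, 0.470, 0.351, 1.55 and 0.280 in knockout ALDH-, and 0.640, 1.99, 0.0776, 1.40 and 0.603 in knockout ALDH+ replicates, each in order of replicate number. Top2a (chromosome 11, 98854260 to 98885503, mm9) was 0.437, 0.449 and 0.949 FPKM in control ALDH-, 0.693 and 0.933 in control ALDH+, 0.588, 1.43, 0.0192, 0.379 and 0 in knockout ALDH-, and 1.38, 3.47, 1.38, 1.23 and 0.264 in knockout ALDH+ replicates. Both genes peaked in knockout ALDH+ replicate 2, at 220.0 fragments of Mki67 and 196 of Top2a, and Top2a was listed at 0 in knockout ALDH- replicate 5. In bulk libraries a few cycling cells and a low level in many cells cannot be told apart, and neither can fewer cells of a type and less RNA per cell.

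The promoters of these 2 genes are shown because both hold repeated CCAAT boxes, the sites of the factor NF-Y found in many genes of the late cell cycle. CCAAT or ATTGG, the same letters on the other strand, occurred 3 times in the window of Mki67 (chr7:135716380-135716629, minus strand) and 6 times in that of Top2a (chr11:99024190-99024439, minus strand), in capitals here. Among all 32851 windows 33.8% held at least 1 such match, 2.79% at least 3 and 0.0578% at least 6. Of the other members, Cdkn1b held 2 and 1 window of Ccnd3 held 1. TTTGAA or TTCAAA, letters of the cell cycle homology region, occurred 2 times in each of both windows, and 16.0% of all windows held at least 1 match. TTCGAA occurred 2 times in the Top2a window, and 1.34% of all windows held at least 1 match. For these letters the share of windows with 2 or more matches was not counted. The GC box GGGCGG was common, at 32.7% of all windows.
Mki67: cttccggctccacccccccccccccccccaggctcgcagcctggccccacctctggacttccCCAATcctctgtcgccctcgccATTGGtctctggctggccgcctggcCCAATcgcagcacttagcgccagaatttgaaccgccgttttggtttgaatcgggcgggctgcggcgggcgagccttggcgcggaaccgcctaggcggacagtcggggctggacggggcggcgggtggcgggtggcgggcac
Top2a: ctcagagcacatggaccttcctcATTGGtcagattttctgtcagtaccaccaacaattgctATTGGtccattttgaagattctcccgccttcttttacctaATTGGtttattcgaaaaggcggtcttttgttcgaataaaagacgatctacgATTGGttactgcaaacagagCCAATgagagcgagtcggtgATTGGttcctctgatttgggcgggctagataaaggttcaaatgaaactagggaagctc

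**Figure D4:**
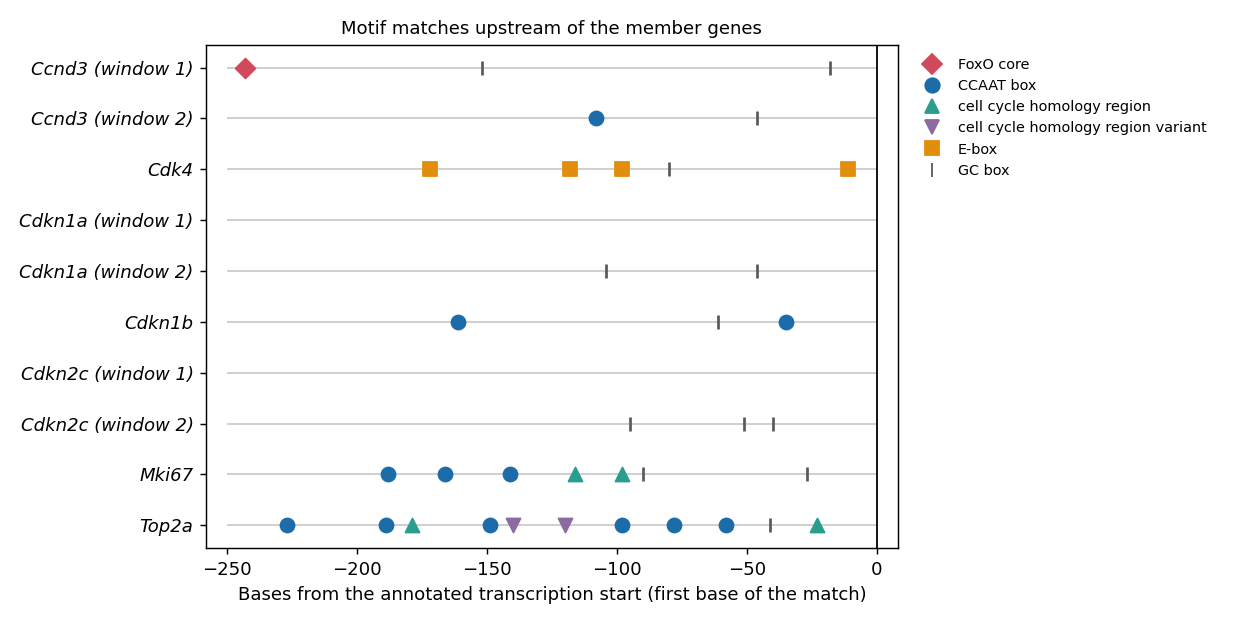
Matches to 6 motifs (symbols) in the 250 bases before the annotated start of 10 promoter windows of 7 genes; the horizontal axis is the distance in bases of the first base of a match from the start, marked by the vertical line. The FoxO core appears in 1 window of Ccnd3, E-boxes 4 times in Cdk4 and CCAAT boxes 6 times in Top2a and 3 times in Mki67.

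The first comparison asked how ALDH+ cells differed from ALDH- cells. Cdkn2c fell, and no other tested member passed the threshold. Averaged over genotypes, its mean of log2 values was lower in ALDH+ cells by 1.28 on the log2 scale (log2 fold change -1.28, SE 0.34, limma adjusted p = 0.0351), and mean FPKM was 6.99 ± 2.20 (SD, n = 8) in ALDH- and 3.35 ± 2.69 (SD, n = 7) in ALDH+ libraries. Fold changes here and below are on the scale of log2(rescaled FPKM + 1), which understates changes of low genes. Across all tested genes 5.91% were called in this comparison, 251 higher and 414 lower, a split that became 318 higher and 213 lower with upper quartile scaling. Against that share the call of 1 of 7 members is a single gene.

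The Cdkn2c difference was not equal in all libraries. In Rip-cre libraries alone it was -0.67 (SE 0.30, limma adjusted p = 0.277) and in Pdx-cre libraries alone -2.24 (SE 0.54, limma adjusted p = 0.795), and the test of the difference between drivers gave -1.63 (SE 0.51, unadjusted p = 0.00599, limma adjusted p = 0.997). In controls it was -1.75 (SE 0.55, limma adjusted p = 0.141) and in knockouts -0.81 (SE 0.38, limma adjusted p = 0.383), and the difference between genotypes, 0.94 (SE 0.67, limma adjusted p = 0.999), was within error. The call was lost in 9 of 14 other settings and in 6 of 15 fits that left out 1 library, with the direction kept in each. The libraries whose removal ended it were control ALDH- replicates 1 and 3, control ALDH+ replicates 1 and 2, knockout ALDH- replicate 5 and knockout ALDH+ replicate 4, with limma adjusted p-values from 0.0523 to 0.173. Without control ALDH+ replicate 1 the number of all genes called also fell, from 665 to 3. All 4 RNAs retained in the nucleus were called higher in ALDH+ cells (median log2 fold change 2.09) and both PP-cell markers lower (median -2.08). The α-cell and δ-cell sums, given above, were also lower in the Pdx-cre ALDH+ libraries, where Cdkn2c was lowest, than in the Pdx-cre ALDH- libraries. Low sums also occurred in the Rip-cre ALDH- libraries (α 1049 to 1424 FPKM, δ 414 to 1038 FPKM), where Cdkn2c was 4.04 to 9.28 FPKM. The part of these cells and RNAs in the result was not tested.

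The other 6 tested members gave values within error or short of the threshold. Ccnd2 had a log2 fold change of -0.30 (SE 0.11, unadjusted p = 0.0181, limma adjusted p = 0.137), with -0.34 in Rip-cre and -0.28 in Pdx-cre libraries alone. Cdkn1b gave -0.33 (SE 0.21, limma adjusted p = 0.403), Ccnd3 -0.23 (SE 0.15, limma adjusted p = 0.424) and Ccnd1 0.28 (SE 0.27, limma adjusted p = 0.611). Cdk4 and Cdkn1a were at -0.02 and -0.04, with SEs of 0.15, and their sign changed with the scaling. The median over the 7 members was -0.23, beside -0.02 over all tested genes.

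Within controls no member was called (0 of 7 by limma, 2 at an unadjusted p under 0.05), against 1.08% of all tested genes called and 14.2% at that unadjusted level. The lowest unadjusted p after that of Cdkn2c was that of Ccnd3, at -0.64 (SE 0.25, unadjusted p = 0.0231, limma adjusted p = 0.252). Within knockouts no member was called either (0 of 7, 2 at an unadjusted p under 0.05), against 0.0178% of all genes called and 13.0% at that unadjusted level. There Cdkn1b gave -0.57 (SE 0.23, unadjusted p = 0.0272, limma adjusted p = 0.316) and Ccnd2 -0.30 (SE 0.13, unadjusted p = 0.0313, limma adjusted p = 0.329). The difference between the genotypes was tested as an interaction, which called 0 of 7 members (1 at an unadjusted p under 0.05) and 0% of all genes (4.24% at that unadjusted level). The member at that lower level was Ccnd3, for which the ALDH difference was higher in knockouts than in controls by 0.81 (SE 0.31, unadjusted p = 0.0187, limma adjusted p = 0.999).

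**Figure D5:**
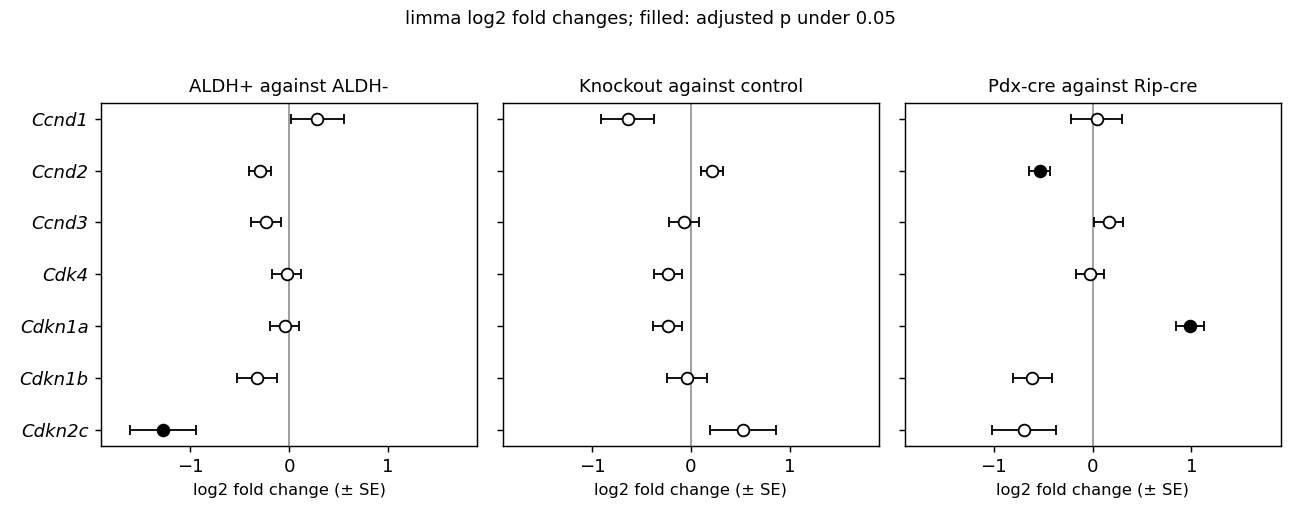
log2 fold changes (horizontal axes) with SE for the 7 tested members in 3 comparisons over 15 libraries; filled points have a limma adjusted p under 0.05. Only Cdkn2c is filled for ALDH+ against ALDH- cells, none for knockout against control, and Cdkn1a and Ccnd2 are filled for the cre driver.

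Top2a and Mki67, below the filter, were compared by exact permutation of the ALDH labels within genotype and cre driver (2 tests, 720 arrangements each, two-sided, smallest possible p 0.00139). Top2a was higher in ALDH+ cells by 0.56 on the log2 scale (exact permutation p = 0.0167), with FPKM of 1.34 ± 1.03 (SD, n = 7) against 0.531 ± 0.473 (SD, n = 8). Leaving out 1 library gave exact p-values between 0.0111 and 0.0778, and 8 of those 15 values did not stay under 0.05. Mki67 was higher by 0.28, within its spread (exact permutation p = 0.228). Their values overlapped between the populations.

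The second comparison asked whether loss of the Foxo genes changed the members. None passed the threshold. Averaged over ALDH populations limma called 0 of 7 (1 at an unadjusted p under 0.05), with 0.116% of all tested genes called and 7.71% at that unadjusted level. Ccnd1 had the smallest p, at -0.64 (SE 0.27, unadjusted p = 0.0301, limma adjusted p = 0.569), with 38.9 ± 8.48 FPKM (SD, n = 5) in controls and 26.5 ± 12.9 FPKM (SD, n = 10) in knockouts. In Rip-cre libraries alone its value was -0.95 (SE 0.20, limma adjusted p = 0.206) and in Pdx-cre libraries alone -0.28 (SE 0.55, limma adjusted p = 0.999). Without knockout ALDH- replicate 4, the library with 50.3 FPKM, it was -0.82 (SE 0.18, limma adjusted p = 0.136).

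The remaining members moved by less. Cdkn2c gave 0.52 (SE 0.34, limma adjusted p = 0.789), Ccnd2 0.22 (SE 0.11, limma adjusted p = 0.706) and Cdkn1a -0.23 (SE 0.15, limma adjusted p = 0.777). Cdk4 gave -0.23, Ccnd3 -0.07 and Cdkn1b, the textbook FoxO target of the list, -0.04 (SE 0.21, limma adjusted p = 0.986). In ALDH- cells alone, where 0.0178% of all genes were called, limma called 0 of 7 members and 2 had an unadjusted p under 0.05, as had 5.79% of all genes. These were Ccnd1 at -0.94 (SE 0.35, unadjusted p = 0.0175, limma adjusted p = 0.795) and Ccnd3 at -0.47 (SE 0.20, unadjusted p = 0.0332, limma adjusted p = 0.829). In ALDH+ cells alone limma called 0 of 7 members, 0 had an unadjusted p under 0.05 (6.63% of all genes had), and 0% of all genes were called. All these comparisons share libraries with one another.

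For the cre driver 9.83% of all tested genes were called, 1106 in number, and 2 of the 7 members were among them. That number ran from 691 to 1271 when 1 library was left out. Cdkn1a was higher in Pdx-cre libraries by 0.99 on the log2 scale (SE 0.14, limma adjusted p = 0.000475), with 116 ± 19.7 FPKM (SD, n = 9) in Rip-cre and 227 ± 50.2 FPKM (SD, n = 6) in Pdx-cre libraries. The ranges did not overlap, which held for 1.95% of all tested genes. Ccnd2 was lower by 0.53 (log2 fold change -0.53, SE 0.11, limma adjusted p = 0.00552), with 186 ± 33.8 FPKM (SD, n = 9) against 122 ± 14.6 FPKM (SD, n = 6). Both calls held in each of the 15 fits that left out 1 library, with Cdkn1a between 0.89 and 1.10 and Ccnd2 between -0.58 and -0.48.

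Cdkn1b was lower in Pdx-cre libraries by 0.61, short of the threshold (log2 fold change -0.61, SE 0.20, unadjusted p = 0.00688, limma adjusted p = 0.0622), and Cdkn2c gave -0.69 (SE 0.32, limma adjusted p = 0.183). Ccnd1, Ccnd3 and Cdk4 gave 0.04, 0.16 and -0.02. The interaction of driver and ALDH population called 0 of 7 members (1, Cdkn2c, at an unadjusted p under 0.05) and 0% of all genes (4.60% at that unadjusted level). Markers of several cell types moved with the driver as Cdkn1a and Ccnd2 did. By limma 6 of 8 β-cell markers were called lower in Pdx-cre libraries, and 3 of 4 α-cell, 1 of 2 δ-cell, 1 of 2 PP-cell, 2 of 6 acinar, 1 of 2 duct and 1 of 1 immune markers that passed the filter were called higher. Acinar markers summed to 3.05 to 1355 FPKM in Pdx-cre and at most 4.13 FPKM in Rip-cre libraries. Immune markers summed to 34.8 to 148 FPKM in Pdx-cre and 20.004 to 37.9 FPKM in Rip-cre libraries. Nearly all of that sum was Cd68, with 34.4 to 148 FPKM in Pdx-cre and 19.0 to 37.7 FPKM in Rip-cre libraries. Ptprc, Csf1r, Tyrobp and Lyz2 peaked at 0.0214, 0.954, 1.33 and 0.688 FPKM. Lyz2 was 0 FPKM throughout the Pdx-cre libraries. The immune call thus rests on Cd68 alone. Whether the markers stand for such cells, and the part of any in the driver differences, was not tested. No label gives a date or run, so the driver cannot be told apart from anything else that differed between the 2 sets of libraries.

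Genes were also ranked by how closely their levels followed these 2 members. Over 15 libraries and 11254 genes the log2 values closest to Cdkn1a by Pearson correlation were those of Pgk1 (0.94), Slc2a1 (0.94) and Bnip3 (0.93), which encode a glycolytic enzyme, a glucose transporter and a mitochondrial protein. Their own log2 fold changes for Pdx-cre against Rip-cre were 1.93, 2.18 and 2.10. The closest to Ccnd2 were Spock1 (0.92), Mns1 (0.90) and 1110018J18Rik (0.90), with -0.74, -1.22 and -0.67 for the driver. Since both members differed by driver, genes picked for likeness to them had to differ the same way, and the correlations describe libraries that share a driver and a sort.

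The rest of the cell cycle machinery was given by lists of known genes. Of 13 other cyclins and kinases 5 passed the filter and none was called in any of the 3 averaged comparisons (0 of 5 by limma each time). At an unadjusted p under 0.05 were 3, 0 and 0 of the 5 for ALDH, genotype and driver. Of all tested genes 20.7%, 7.71% and 25.7% reached that level, shares that also apply to the lists below. Ccna2, the cyclin of S phase, had a median of 0.689 FPKM in ALDH- and 2.44 FPKM in ALDH+ libraries (log2 fold change 0.88, SE 0.28, limma adjusted p = 0.0734), and Ccnh, a partner of Cdk7, gave -0.60 (SE 0.20, limma adjusted p = 0.0967). Of 4 other inhibitors 3 were usable and Cdkn2b alone passed the filter, at a median of 2.04 FPKM (0.34 for ALDH, limma adjusted p = 0.629), while Cdkn2a and Cdkn1c were at a median of 0.

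Of 13 genes of the retinoblastoma and E2F families 11 passed the filter and 0 were called for ALDH, genotype or driver (0, 1 and 1 at an unadjusted p under 0.05 by limma). Rb1 was at a median of 13.6 FPKM, E2f4 at 20.7 FPKM and E2f1 at 1.23 FPKM. Of 16 genes of S phase 10 passed the filter and 0 were called (1, 0 and 0 at an unadjusted p under 0.05 by limma), with Pcna, the replication clamp, at -0.54 for ALDH (SE 0.17, limma adjusted p = 0.0695). Of 22 genes of G2 and mitosis only Ube2c and Aurka passed the filter, and neither was called (0 of 2 by limma, 0 at an unadjusted p under 0.05 in each comparison). Cdk1 was at a median of 0.0335 FPKM, so that most genes of the dividing cell sat with Mki67 and Top2a below the filter.

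Of 13 targets of p53 other than Cdkn1a, 12 passed the filter. Limma called 1 of 12 for ALDH and 2 of 12 for the driver, beside 5.91% and 9.83% of all tested genes. Bax, a promoter of cell death, was lower in ALDH+ cells (log2 fold change -0.85, SE 0.21, limma adjusted p = 0.0267) and higher in Pdx-cre libraries (0.94, SE 0.20, limma adjusted p = 0.0077), as was Plk2 for the driver (1.44, SE 0.31, limma adjusted p = 0.0082), and none was called by genotype (0 of 12 by limma, 2 at an unadjusted p under 0.05). The median of the 12 was 0.13 for ALDH, -0.11 for genotype and 0.10 for the driver. Of 16 regulators upstream of the D-type cyclins and inhibitors 14 were usable and 12 passed the filter, with 1 of 12 called for ALDH and 1 of 12 for the driver beside the same shares. Mll1, the methyltransferase that works with menin on Cdkn1b and Cdkn2c in islets, was higher in ALDH+ cells (0.84, SE 0.16, limma adjusted p = 0.00874), with a median of 14.2 FPKM in ALDH- and 18.0 FPKM in ALDH+ libraries. Bmi1, a Polycomb repressor of Cdkn2a, was lower in Pdx-cre libraries (-0.60, SE 0.14, limma adjusted p = 0.0133). No regulator was called by genotype (0 of 12 by limma, 0 at an unadjusted p under 0.05). For ALDH in controls alone limma called 1 of 12 p53 targets and 1 of 12 regulators, beside 1.08% of all tested genes. In knockouts alone it called 0 of 12 in both lists, beside 0.0178%. Without control ALDH+ replicate 1 the genes called for ALDH fell from 665 to 3, with 0 lower, so Bax was not among them. Whether Mll1 was, and how either gene fared in other settings, was not examined.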

How the data were processed

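The authors prepared poly-A libraries from sorted cells and deposited 1 gene table per library with FPKM values and confidence bounds in the layout of Cufflinks. Per the labels, reads were processed with bcl2fastq 1.8.4 and TopHat2 2.0.4 on mm9. The quantifier's version and the annotation are not given in the sources used here. Counts were not used: the study tested with DESeq, and the deposited FPKM were tested here on a log scale. FPKM hold neither depth nor variance of counts, so low genes are less certain than their FPKM shows. Fragments behind a value were worked out from its interval, taken as 2 standard errors of a count, and of such values below 500 a share of 66.2% was whole to a tolerance of 0.02, too few to recover reads. Of 23699 entries, 712 lines with a repeated symbol and 63 lines with a failed or too deep estimate were left out.

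FPKM were rescaled by a trimmed mean of M-values (30% of M and 5% of A trimmed on each side, factors 0.950 to 1.08), and log2(rescaled FPKM + 1) of genes with a mean of at least 1 entered a limma model (version 3.58.1, R 4.3.3, trended prior variance) whose terms were the 4 groups and the cre driver, over 15 libraries with 10 residual degrees of freedom. P-values were two-sided and adjusted by Benjamini and Hochberg over all tested genes in each of 9 comparisons, with a threshold of 0.05. The 2 members below the filter had exact permutation tests. The procedure was also run on simulated data. These had independent libraries and no driver effect, shared sort or length trend, so that run does not cover those features. Printed FPKM are as deposited. Members, lists and named genes were chosen with earlier results of these data known. Named genes were all members, up to 4 called genes per list or up to 2 with the smallest p, the 3 genes most correlated with Ccnd2 and Cdkn1a, and Foxo1, Foxo3, Foxo4 and Aldh1a3. Levels of other list genes, and Bmi1 and Plk2, were added after their values were seen.

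The main model did not pair libraries by replicate number. Residuals of equal-numbered ALDH- and ALDH+ libraries around their group means correlated between -0.244 and 0.406. With the driver also fitted, they correlated between -0.0448 and 0.0699. Libraries of unequal number were not compared as a set, so these values cannot show whether equal numbers are pairs. Libraries of a group correlated between 0.936 and 0.982 (Pearson, log2 values), with no equal pair. Alternatives covered the pseudocount, filter, scaling, driver term, subsets of libraries, replicate blocks, transcript length, library weights and leaving out each library. Promoters were read from RefSeq (GRCm38.p6).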

Additional observations from a re-analysis of the deposited data

Results flagged for a closer look

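In knockout ALDH- cells, replicate 4, a Pdx-cre library, stood apart from the other 4 libraries for Ccnd1, at 50.3 FPKM against 12.0 to 19.0 FPKM, and for Mki67, at 1.55 FPKM against 0.177 to 0.470 FPKM. The gap to the nearest library was larger than Dixon's 95% criterion allows for 5 values. The test covered 18 sets of 5 values (9 genes in 2 groups), of which chance flags about 1 in 20. The 2 values rested on 1901 and 161 fragments. That library held summed α-cell markers of 17647 FPKM, against 9713 FPKM in the other Pdx-cre library of the group. The Rip-cre libraries of the group held 1049 to 1262 FPKM. Foxo1 in replicate 4 was 4.24 FPKM, the highest of all knockout libraries, against 0.0925 FPKM in the other Pdx-cre library of the group. The part of α-cell markers or of remaining Foxo1 in the 2 values was not tested.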

How the results depend on the processing

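The call of 1 member, Cdkn2c, between ALDH+ and ALDH- cells became 0 with no filter, with no driver term, in Rip-cre or Pdx-cre libraries alone, without the 3 libraries with a too deep Ins2 estimate, with a replicate block, with a replicate block within the cre driver, with the length trend removed and with library quality weights, and was 0 to 1 when 1 library was left out. Limma adjusted p-values of Cdkn2c were then 0.0785, 0.0830, 0.277, 0.795, 0.169, 0.123, 0.0655, 0.139 and 0.0666 in that order. The count of all genes called in this comparison, 665, became 176 with no driver term, 156 and 4 within the drivers, 2 without the 3 libraries, 22 and 237 with the replicate blocks, and 180 with the length trend removed. It was 3 to 827 when 1 library was left out, and subsets have fewer samples. Control counts ran from 0 to 549, from 121, those of knockout against control from 0 to 40, from 13, those of knockout against control in ALDH+ cells reached 33 and the interaction with genotype 16 with no filter, and Pdx-cre against Rip-cre gave 383 without the 3 libraries, from 1106, and 691 to 1271 when 1 library was left out. It moved by over 1.5 times without control ALDH- replicate 3 (736), control ALDH+ replicate 1 (710) or 2 (695), knockout ALDH- replicate 5 (705) or knockout ALDH+ replicate 5 (691). The cause was not tested.

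For Top2a the difference stayed positive, at 0.56 (exact permutation p = 0.0528) without the driver in the strata, 0.75 (exact permutation p = 0.05) in Rip-cre libraries and 0.33 (exact permutation p = 0.667) in Pdx-cre libraries, and at 0.39 to 0.70 when 1 library was left out. With 6 libraries the Pdx-cre test could not reach the threshold. Cdkn1b passed the threshold for the driver with library weights (limma adjusted p = 0.0401) and without knockout ALDH- replicate 2 (limma adjusted p = 0.0285).

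Changes of sign were seen only for values within error. For ALDH, Ccnd1 was -0.062 in Pdx-cre libraries. Cdk4 was 0.066 with upper quartile scaling, 0.24 in Rip-cre libraries, 0.062 with the replicate block, 0.18 with the length trend removed, 0.000119 with library weights, and -0.20 to 0.15 when 1 library was left out. Cdkn1a was 0.045 with upper quartile scaling, 0.038 with no driver term, 0.18 in Pdx-cre libraries, 0.22 with the replicate block, 0.040 with the length trend removed, and -0.21 to 0.14 when 1 library was left out. For genotype, Ccnd3 was 0.16 in Rip-cre libraries and -0.25 to 0.11 when 1 library was left out, and Cdkn1b was 0.23 with a replicate block on number alone, 0.024 with library weights and -0.11 to 0.038 when 1 library was left out. For the driver, Ccnd1 was -0.0021 with no rescaling, -0.013 without the 3 libraries, -0.058 with library weights and -0.25 to 0.19 when 1 library was left out, and Cdk4 was 0.023 with library weights and -0.14 to 0.080 when 1 library was left out. Whether equal replicate numbers mark a shared sort is not known, and the block changed no other member's call. The calls of Cdkn1a and Ccnd2 for the driver held in all 9 other settings that could be run. Depth limits Cdkn2c, Mki67 and Top2a, which rested on as few as 4, 7 and 0 fragments.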
